A study of Homo sapiens with 6 samples.

Results

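The genes described here are 29 protein-coding genes of cholesterol and fatty acid synthesis, chosen by name, out of 20037 protein-coding genes of the RefSeq annotation. They comprise 7 early sterol enzymes (HMGCS1, MVK, PMVK, MVD, IDI1, FDPS and FDFT1), 10 late sterol enzymes (SQLE, LSS, CYP51A1, TM7SF2, MSMO1, NSDHL, HSD17B7, EBP, SC5D and DHCR7), 6 fatty acid enzymes (ACLY, ACSS2, ACACA, FASN, SCD and ELOVL6), 5 regulators (SREBF1, SREBF2, SCAP, INSIG1 and INSIG2) and the sterol transfer protein STARD4. MYC was mapped at these genes by chromatin immunoprecipitation and sequencing (ChIP-seq) in MIAPaCa2, an established human pancreatic ductal adenocarcinoma cell line. In the first group, cells starved of serum for 48 hours received conditioned medium (CM) from primary cancer-associated fibroblasts for 3 hours. In the second group, cells starved in the same way received fresh serum-free DMEM for 3 hours. Each group has 2 immunoprecipitated libraries made with a MYC antibody, and the 2 inputs of the series were not analysed here. All libraries come from the same tumour cell line, the fibroblast donors are not described, and nothing in the labels says that the libraries of a group came from separate cultures. Differences between libraries of a group therefore measure a spread that may be technical.

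Cells make cholesterol from acetyl-CoA through mevalonate and the isoprenoids, which early enzymes join into squalene and late enzymes close and trim into cholesterol. Fatty acid enzymes draw on the same acetyl-CoA. Many of these genes are activated by the SREBP transcription factors, which SCAP escorts from the endoplasmic reticulum and the INSIG proteins hold back when sterols are plentiful. MYC, bound with MAX, recognises E-boxes such as CACGTG and is known for occupying promoters of biosynthetic genes in tumour cells.

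A gene was called bound in a library when a peak of its list lay within 1000 bp of either outermost annotated end. The lists differed in length, with 15304 and 12797 peaks in CM, against 4657 and 7652 in DMEM. No read depth can be had from peak lists, so a call is a call at the authors' threshold and not a level of binding. Peak strength is given as the percentile of a peak's score within its own list, that is the percent of peaks in that list with a lower score, ties counted at their midpoint. Scores are those the authors gave. Of 5 epithelial marker genes, KRT8, KRT18 and KRT19 had peaks in the 2 CM libraries but not in DMEM. KRT8 and KRT18 share peaks in both CM libraries, so they are not separate observations. Among all protein-coding genes, 11% had peaks at an end in both CM libraries and none in DMEM, and 54.1% had none in any library. EPCAM, CDH1 and all 6 fibroblast markers examined had no peak in any library, and such calls carry no information on expression.

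Promoter windows show what lay under the peaks. They are RefSeq sequences of build GRCh38.p14, 300 bases long, from 250 bases before a start site to 50 bases including and after it, written 5′ to 3′ in the direction of the gene. The first 4 are windows of the 4 members that hold CACGTG, shown in capitals, with 1 window for each gene. SCAP (chr3:47475892-47476191, minus strand) and INSIG1 (chr7:155297628-155297927, plus strand) had this motif inside a peak of all 4 libraries. LSS (chr21:46228725-46229024, minus strand) had it inside a peak of 3 libraries, and SC5D (chr11:121292521-121292820, plus strand) had it in no peak.
SCAP: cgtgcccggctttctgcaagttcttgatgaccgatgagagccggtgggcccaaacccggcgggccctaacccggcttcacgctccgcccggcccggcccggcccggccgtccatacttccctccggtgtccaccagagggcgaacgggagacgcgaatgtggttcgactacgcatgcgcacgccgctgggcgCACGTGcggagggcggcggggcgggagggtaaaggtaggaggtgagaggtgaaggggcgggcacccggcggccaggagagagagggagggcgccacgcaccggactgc
INSIG1: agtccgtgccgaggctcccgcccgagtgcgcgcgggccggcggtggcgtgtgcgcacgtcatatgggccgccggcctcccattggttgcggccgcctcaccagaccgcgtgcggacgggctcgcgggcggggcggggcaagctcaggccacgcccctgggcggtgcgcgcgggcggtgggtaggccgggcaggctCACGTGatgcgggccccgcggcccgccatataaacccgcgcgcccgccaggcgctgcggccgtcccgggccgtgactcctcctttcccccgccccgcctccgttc
LSS: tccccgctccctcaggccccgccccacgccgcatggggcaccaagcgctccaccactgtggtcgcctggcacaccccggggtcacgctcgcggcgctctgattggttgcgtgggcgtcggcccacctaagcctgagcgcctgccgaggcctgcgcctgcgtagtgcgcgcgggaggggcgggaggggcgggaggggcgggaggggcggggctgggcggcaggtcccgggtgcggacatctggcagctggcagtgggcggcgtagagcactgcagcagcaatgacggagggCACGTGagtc
SC5D: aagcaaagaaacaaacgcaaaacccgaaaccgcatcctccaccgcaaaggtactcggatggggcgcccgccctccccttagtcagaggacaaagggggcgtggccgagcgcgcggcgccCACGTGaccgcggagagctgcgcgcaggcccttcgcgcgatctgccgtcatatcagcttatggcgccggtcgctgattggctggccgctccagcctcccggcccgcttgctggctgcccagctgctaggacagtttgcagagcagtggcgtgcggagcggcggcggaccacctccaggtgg
The SREBF2 window (chr22:41832855-41833154, plus strand) was the sole member window with the SREBP site TCACNCCAC, in capitals. That site lay inside a peak of both CM libraries and of DMEM library 2. No other form of SREBP site was searched for, so member windows without TCACNCCAC may still hold SREBP sites.
SREBF2: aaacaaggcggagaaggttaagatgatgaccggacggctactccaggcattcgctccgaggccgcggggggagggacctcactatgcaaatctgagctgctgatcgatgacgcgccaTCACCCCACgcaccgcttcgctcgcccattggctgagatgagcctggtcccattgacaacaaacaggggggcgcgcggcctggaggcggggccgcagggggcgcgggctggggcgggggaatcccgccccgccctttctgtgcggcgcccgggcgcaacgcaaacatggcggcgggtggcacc
The windows of MVK (chr12:109573544-109573843, plus strand) and HMGCS1 (chr5:43313363-43313662, minus strand) contrast an early enzyme gene with peaks in all 4 libraries and an early enzyme gene with none. Capitals mark CCAAT, the motif bound by NF-Y, on either strand.
MVK: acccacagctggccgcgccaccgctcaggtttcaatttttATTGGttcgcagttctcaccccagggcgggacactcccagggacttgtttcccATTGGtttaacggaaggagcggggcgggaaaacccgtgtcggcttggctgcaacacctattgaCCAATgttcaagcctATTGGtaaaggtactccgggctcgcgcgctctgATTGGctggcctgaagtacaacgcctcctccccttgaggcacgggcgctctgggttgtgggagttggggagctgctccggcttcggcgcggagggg
HMGCS1: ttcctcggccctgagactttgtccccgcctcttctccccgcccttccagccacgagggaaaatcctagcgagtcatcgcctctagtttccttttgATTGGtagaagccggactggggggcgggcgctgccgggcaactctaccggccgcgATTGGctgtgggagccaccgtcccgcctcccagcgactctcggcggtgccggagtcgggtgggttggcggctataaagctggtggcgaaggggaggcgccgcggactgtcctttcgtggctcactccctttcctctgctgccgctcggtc

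MYC peaks lay at most regulator genes, at FASN, SCD, MVK and several late sterol genes in both media, and were absent from others. In the CM libraries 21 and 17 of the 29 genes were bound, against 10 and 17 in the DMEM libraries. The background over the whole annotation was 43.9% and 40.9% of genes in the CM libraries and 16.8% and 28.1% in the DMEM libraries. CM library 2 and DMEM library 2 thus had equal numbers and shared 16 genes, with FDPS bound in that CM library alone and MSMO1 in that DMEM library alone. All 10 members bound in DMEM library 1 were bound in the other 3 libraries as well. Of all protein-coding genes, 3369 were bound in DMEM library 1 and 3180 in all 4 libraries. The mean was 19 ± 2.83 genes in CM and 13.5 ± 4.95 genes in DMEM (SD, n = 2 libraries each), a difference of 5.5 genes. Its exact two-sided permutation p was 0.667. With 2 against 2 libraries the smallest possible p is 0.333, so the test could not call a difference of any size. The difference in members bound was -0.5 genes when each list was cut to its 4657 highest-scoring peaks. In these cut lists 21.9% and 21.6% of all genes were bound in CM and 16.8% and 19.8% in DMEM.

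Of the 29 genes, 17 (58.6%) were bound in both CM libraries, where 39.1% of all protein-coding genes were bound, and 10 (34.5%) in both DMEM libraries, where 15.9% were bound. The same 10 were bound in all 4 libraries, a call that 15.9% of all genes received. Another 6 had peaks in CM libraries 1 and 2 and DMEM library 2, against 12.3% of all genes. FDPS was the single CM-only gene, that is with peaks in each CM library and none in DMEM, a call that 11% of all genes received. In lists of equal length FDPS had no peak in any library, and the single CM-only gene was MVD, a call that 1.92% of all genes received there. In total 8 genes had no peak at a gene end in any library, against 54.1% of all genes. Without DMEM library 1 the members bound in DMEM numbered 17, beside 28.1% of all genes, and those bound in all remaining libraries 16. CM-only members numbered 7 without DMEM library 2 and 4 without CM library 2. The shares of all genes for the last 3 counts are not reported here.

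Promoter type moved with these shares. All 26 members with a RefSeq window had at least 1 CpG-rich window, against 68.4% of 15842 protein-coding genes with a window. CpG-rich was defined by a GC content of at least 50% and an observed over expected CpG ratio of at least 0.6. Among these 26 members, 15 were bound in both CM libraries, near the 55.8% of the 10835 genes with a CpG-rich window, and 8 in both DMEM libraries, beside 23.2% of such genes. Per library, 19 and 15 of the 26 were bound in CM, beside 61.6% and 58.2% of genes with a CpG-rich window, and 8 and 15 in DMEM, beside 24.4% and 40.6%. For all 4 libraries the count was 8, beside 23.1%. CM-only was 1 of 26, beside 15%, and 7 had no peak at an end, beside 35.8%. Genes without any CpG-rich window were bound less often, 10.7% of them in both CM and 3.59% in both DMEM libraries. No member was among them, although DHCR7, ACACA and ACSS2 each also had a window that was not CpG-rich. The part of promoter type in the members' counts was not tested. FASN, SQLE and FDFT1 have no window in the table used.

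**Figure D1:**
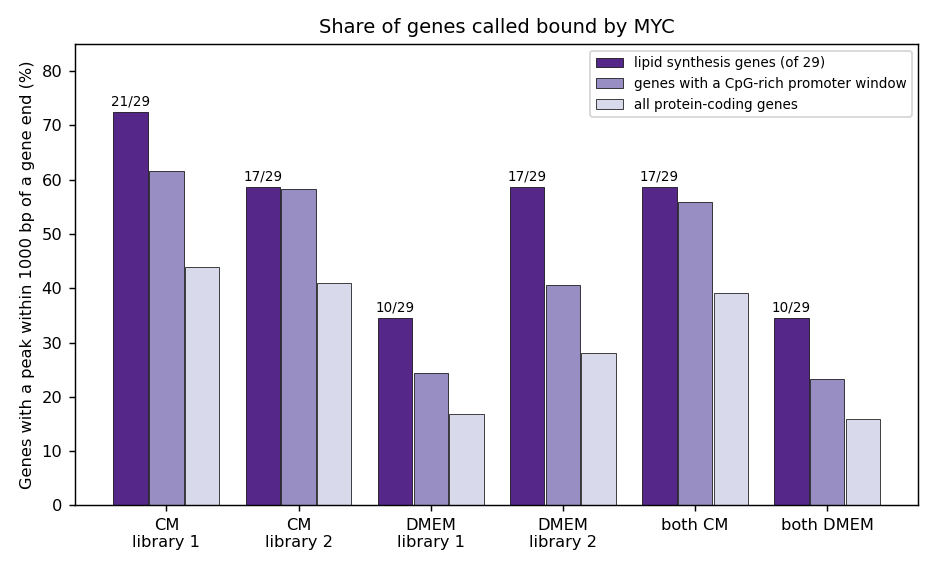
Share of genes with a MYC peak within 1000 bp of a gene end (vertical axis, percent) in each library, in both CM and in both DMEM libraries. Bars show the lipid synthesis genes with their counts of 29, genes with a CpG-rich promoter window and all protein-coding genes. Members stood at 17 of 29 in both CM libraries, beside 39.1% of all protein-coding genes. Of the 26 members with a promoter window 15 were bound there, beside 55.8% of genes with a CpG-rich window.

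Outermost gene ends missed the start sites of a few members. PMVK and ACLY begin, in the RefSeq windows, 5939 bp and 11523 bp inside their outermost ends, and both carried peaks at those inner starts in all 4 libraries. FDFT1 has no window, and its peaks lay 6607 to 6916 bp inside the gene's low-coordinate end in both CM libraries and DMEM library 2. With ends and starts both allowed, a rule added after the data were seen, 19 of the 29 genes were bound in both CM libraries, where 41.3% of all genes were, and 13 in both DMEM libraries, where 17.1% were. SCAP shows how close to the limit a call can be. Its DMEM library 2 peak lay 966 bp from the outermost end and was counted, and its DMEM library 1 peak lay 1061 bp from it and was not, although both covered the SCAP start site.

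Early sterol genes had 4 of 7 genes bound in both CM libraries (MVK, MVD, IDI1 and FDPS) and 1, MVK, in both DMEM libraries. These calls were made for 39.1% and 15.9% of all genes and for 55.8% and 23.2% of genes with a CpG-rich window. The same shares are the background of each group below. Without DMEM library 1 the DMEM count was 3, beside 28.1% of all genes. MVK phosphorylates mevalonate, and its peak stood at percentiles of 83.6 and 84.3 in CM and of 89.5 and 81.9 in DMEM. The values of both media overlapped, and the DMEM library 1 peak ended 111 bp short of the start site. All 4 MVK peaks also lay at an end of MMAB, a cobalamin enzyme gene next to MVK, so that they cannot be assigned to either gene.

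PMVK, the next kinase, had inner-start peaks at percentiles of 86.7 and 85.1 in CM and of 53.9 and 65.4 in DMEM. These peaks spanned 1555 and 1370 bp in CM and 326 and 633 bp in DMEM, and each covered the start site. MVD, which makes isopentenyl diphosphate, had start-site peaks at percentiles of 84.4 and 88.9 in CM. In DMEM library 2 its best peak was at percentile 6.0 and lay at the far end of the gene, at an end of CYBA, and a second one, at percentile 2.0, lay 110 bp from the start. DMEM library 1 had no MVD peak. Both CM libraries also had peaks near the far end, the stronger at percentiles of 72.5 and 64.0.

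IDI1, the isomerase of isopentenyl diphosphate, had peaks at percentiles of 58.6 and 62.4 in CM and of 51.5 in DMEM library 2, all shared with an end of WDR37. In both CM libraries a further peak covered a start of IDI1 inside the gene, at percentiles of 63.6 and 44.1. FDPS, farnesyl diphosphate synthase, had peaks at percentiles of 63.6 and 57.5 in CM and none in DMEM, and both CM peaks also lay at an end of PKLR. FDFT1, squalene synthase, had its internal peaks at percentiles of 64.7 and 56.1 in CM and of 67 in DMEM library 2. The DMEM library 2 value of FDFT1 thus lay above both of its CM values, whereas both DMEM values of PMVK lay below both of its CM values. The order seen at PMVK was also that of the median percentiles of all genes bound in all 4 libraries. They were 89.2 and 86.6 in CM and 63.5 and 77.4 in DMEM.

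Late sterol genes had 6 of 10 members bound in both CM libraries and 4 in both DMEM libraries (SQLE, LSS, CYP51A1 and DHCR7), beside 39.1% and 15.9% of all genes. Without DMEM library 1 the DMEM count was 7, beside 28.1% of all genes. DHCR7, which reduces the last double bond on the way to cholesterol, had peaks at percentiles of 94.3 and 91.0 in CM and of 88.6 and 88.4 in DMEM. Each of these peaks covered a start site. LSS, which cyclises squalene epoxide into lanosterol, stood at 91.6 and 89.9 in CM and at 66.6 and 91.7 in DMEM. In CM library 1 a single peak of 2544 bp spanned the LSS start, while the other 3 libraries each had 2 peaks there. The stronger of the 2 lay upstream of the start in CM library 2 and DMEM library 2 and inside the gene in DMEM library 1.

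CYP51A1, lanosterol demethylase, had peaks at percentiles of 87.2 and 87.7 in CM and of 2.7 and 67 in DMEM. The DMEM library 1 peak was 247 bp wide and lay 272 bp from the start site, whereas the other 3 covered it. SQLE, squalene epoxidase, stood at 69.3 and 62.4 in CM and at 35.4 and 68.0 in DMEM, so that the media overlapped. Its peak also lay at an end of the divergent noncoding gene SQLE-DT.

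TM7SF2, a sterol reductase, was called bound in both CM libraries and DMEM library 2 by peaks at its far end, 4581 to 4725 bp from its start and at an end of ZNHIT2. Its own start had a peak in CM library 1 alone, at percentile 32.9. EBP, a sterol isomerase, had narrow peaks of 746 and 290 bp in CM and 290 bp in DMEM library 2, at percentiles of 36.8, 57.5 and 43.2. MSMO1, a sterol methyl oxidase, had a start-site peak in CM library 1 (percentile 56.1) and DMEM library 2 (21.4). NSDHL, a sterol dehydrogenase, had a peak in CM library 1 alone, at percentile 35.1 and shared with an end of CETN2. HSD17B7 and SC5D, a sterol ketoreductase and a sterol desaturase, had none.

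Fatty acid genes ranged from the strong peaks of FASN to none at ACACA and ACSS2. FASN, fatty acid synthase, had the strongest peaks of all 29 genes in every library, at percentiles of 99.3 and 99.8 in CM and of 97.4 and 99.4 in DMEM. They spanned 3601 and 2821 bp in CM and 2225 and 2289 bp in DMEM, over the upper end of the gene, which lies on chromosome 17 from 82078338 to 82098236. Values of both media overlapped, and no other annotated gene end lay within 1000 bp of these peaks.

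SCD, the desaturase that makes oleate, stood at 86.7 and 90.4 in CM and at 62.0 and 76.7 in DMEM, without overlap of the percentiles. The median percentiles of all genes bound in all 4 libraries were 89.2 and 86.6 in CM. In DMEM these medians were 63.5 and 77.4, so that they did not overlap between media either. The CM peaks of SCD covered its start, and the strongest DMEM peaks ended 76 and 6 bp before it. ACLY, which supplies cytosolic acetyl-CoA from citrate, had its inner-start peaks at 87.2 and 87.1 in CM and at 58.8 and 83.8 in DMEM, again without overlap. By its outermost ends ACLY was called in CM library 1 alone, by a peak of percentile 22.4 shared with an end of ODAD4. In DMEM library 1 the ACLY start region held 4 separate peaks where each CM library had a single peak of 2503 or 2221 bp. ELOVL6, a fatty acid elongase, had in CM library 1 a peak of percentile 10.4, 821 bp inside the outermost end, and a stronger one of percentile 20.5 deeper in the gene. It had in CM library 2 a peak of percentile 64.9 that lay 1946 bp inside it and was not counted. It had none in DMEM. ACACA and ACSS2, acetyl-CoA carboxylase and acetyl-CoA synthetase, had no peak. By gene ends 2 of 6 were bound in both CM and 2 in both DMEM libraries, 3 and 3 with starts allowed, and 4 in CM without CM library 2. The shares of all genes were 39.1% and 15.9% by gene ends, 41.3% and 17.1% with starts allowed, and 43.9% in CM library 1.

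Regulator genes were bound throughout in CM, 5 of 5 in both libraries, and 3 of 5 in both DMEM libraries, or 4 with starts allowed. Beside these, 39.1% of all genes were bound in both CM and 15.9% in both DMEM libraries, or 17.1% with starts allowed. Without DMEM library 1 all 5 regulator genes were bound in DMEM too, beside 28.1% of all genes. With a minimum score of 50 none of the 5 was bound in both DMEM libraries. SREBF1, which encodes the SREBP of fatty acid genes, stood at percentiles of 89.6 and 93.1 in CM and of 31.4 and 65.9 in DMEM. The CM peaks covered its start, and the DMEM peaks lay 335 and 303 bp inside the gene. SREBF2, which encodes the SREBP of sterol genes, stood at 78.3 and 68.3 in CM and at 23.8 and 43.2 in DMEM. Its peaks in both CM libraries and DMEM library 2 also lay at an end of the coding gene CCDC134, so that they cannot be assigned to either gene. Both genes had higher percentiles in both CM lists than in either DMEM list, in lists of different lengths. The medians of all genes bound in all 4 libraries, given with SCD above, had the same order.

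INSIG1, itself a known SREBP target, stood at 78.8 and 92.5 in CM and at 37.8 and 76.7 in DMEM, and all 4 peaks covered its start. SCAP stood at 82.9 and 81.6 in CM and at 84.4 in DMEM library 2, and its uncounted DMEM library 1 peak was at percentile 1.2. INSIG2 had weak and narrow peaks, at 31.1 and 14.1 in CM and 12.6 in DMEM library 2, all of them upstream of its start. Ends of noncoding genes lay within 1000 bp of further best peaks, namely SNAI3-AS1 at MVD in CM, MCM3AP-AS1 at LSS, CYP51A1-AS1 at CYP51A1, DHCR7-DT at DHCR7, SREBF2-AS1 at SREBF2, LOC105377073 at SCAP, INSIG1-DT at INSIG1 and LOC107985940 at INSIG2. The single gene of sterol transfer, STARD4, a carrier of cholesterol between membranes and a known SREBP target, had no peak.

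**Figure D2:**
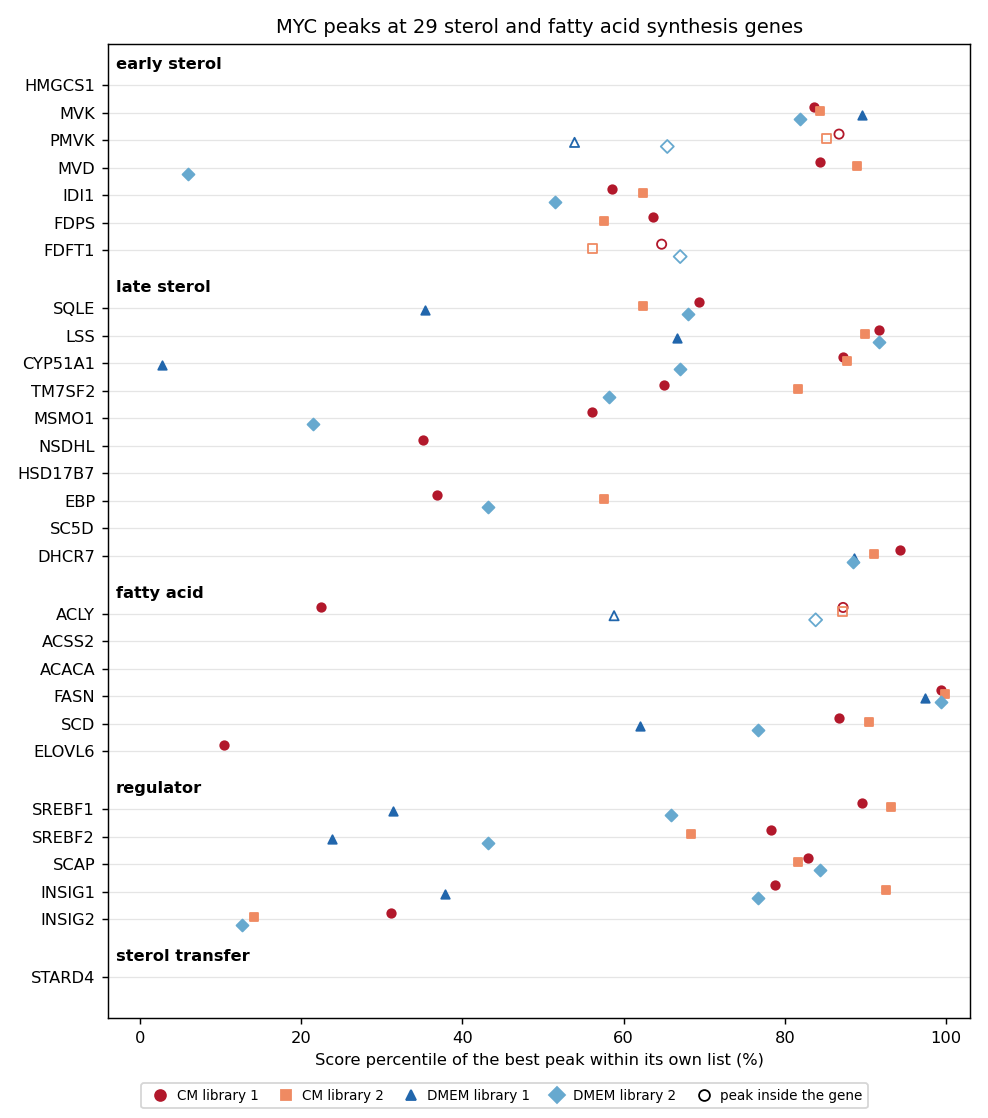
Score percentile of the best peak at each of the 29 genes within its own list (horizontal axis), by library and pathway group, with open symbols for peaks inside PMVK, FDFT1 and ACLY. FASN stood at 97.4 or above in all 4 lists, and genes without symbols had no peak.

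**Figure D3:**
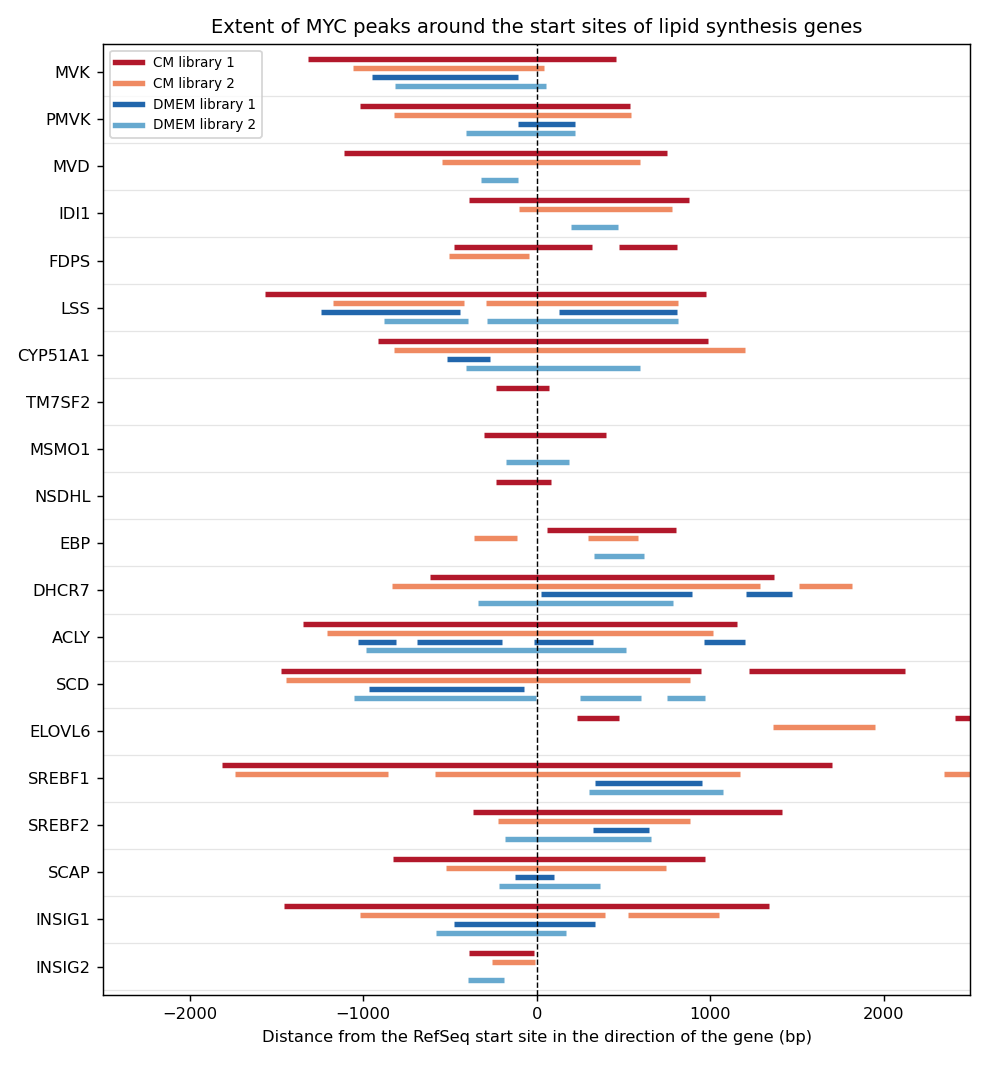
Extent of peaks around the outermost RefSeq start site of members with a window and a peak, by library. The horizontal axis runs 2500 bp to each side, in the direction of the gene. Only peaks on the gene or within 1000 bp of its ends were drawn, so blank space further out does not show absence. SREBF1 peaks covered the start in CM and began 335 and 303 bp downstream of it in DMEM, whereas the DMEM library 1 peak of MVK ended 111 bp before the start.

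The genes without any peak on the gene or its 1000 bp flanks were HMGCS1, HSD17B7, SC5D, ACSS2, ACACA and STARD4. HMGCS1 makes the precursor of mevalonate. Its nearest peak lay 164.8 to 165.6 kb away in all 4 libraries. STARD4 was 402.1 to 402.8 kb from its nearest peak, and SC5D 268.5 and 268.4 kb in CM and 956.7 and 956.9 kb in DMEM. In CM, HSD17B7 and ACSS2 had nearer peaks, 9.8 kb away in both CM libraries for HSD17B7 and 26.8 and 26.9 kb for ACSS2. In DMEM the distances were 1024.7 and 9.5 kb for HSD17B7 and 164.7 and 27.5 kb for ACSS2.

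ACACA differed from the other 5 in the length and gene content of its peak-free stretch. No library had a peak anywhere in the 3.09 Mb around ACACA, on chromosome 17 from 35764601 to 38851980. This stretch holds 55 protein-coding genes, 18 of them with a CpG-rich window, among them TADA2A, which adjoins ACACA, and the proteasome gene PSMB3. By the number of CpG-rich genes it ranked second of 8799 peak-free stretches of at least 20000 bp, after 5.19 Mb of chromosome 6 from 28383652 to 33570588. The absence of a peak at ACACA cannot be told apart from the absence of peaks over the whole stretch. Whether reads could be placed there was not tested, so the lack of a call at ACACA does not show a lack of binding. The stretches around the other 5 genes held 1 to 3 genes with a CpG-rich window, and those of SC5D and STARD4 spanned 1.63 and 1.07 Mb. Whether reads could be placed in these stretches was not tested either.

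For the 10 genes bound in all 4 libraries, ranks within the 3180 protein-coding genes bound in all 4 compare the media over the same set of genes, a ranking added after the data were seen. By this rank SREBF1 stood at the 51.3 and 71.1 percentile in CM and at 21.6 and 33.2 in DMEM. CYP51A1 stood at 43.1 and 53.0 in CM and at 1.7 and 34.8 in DMEM. SREBF2 also ranked higher in both CM libraries, at 21.5 and 16.1, than in either DMEM library, at 15.9 and 14.8, a difference of 3.4 points between means.

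The opposite order was seen for MVK, at 32.7 and 42.9 in CM and 83.6 and 58.7 in DMEM, for SQLE, at 9.4 and 10.7 in CM and 24.8 and 36.0 in DMEM, and for DHCR7, at 71.0 and 63.6 in CM and 82.4 and 71.6 in DMEM. LSS, FASN, SCD and INSIG1 overlapped between media. FASN stayed at 96.0 and 99.0 in CM and 96.0 and 98.6 in DMEM. Ranks in both CM libraries above both DMEM libraries were thus seen in 3 of 10 members and in 20% of the 3180 genes, and the opposite in 3 of 10 and in 19.5%. Member shares of this size do not stand out from that background.

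**Figure D4:**
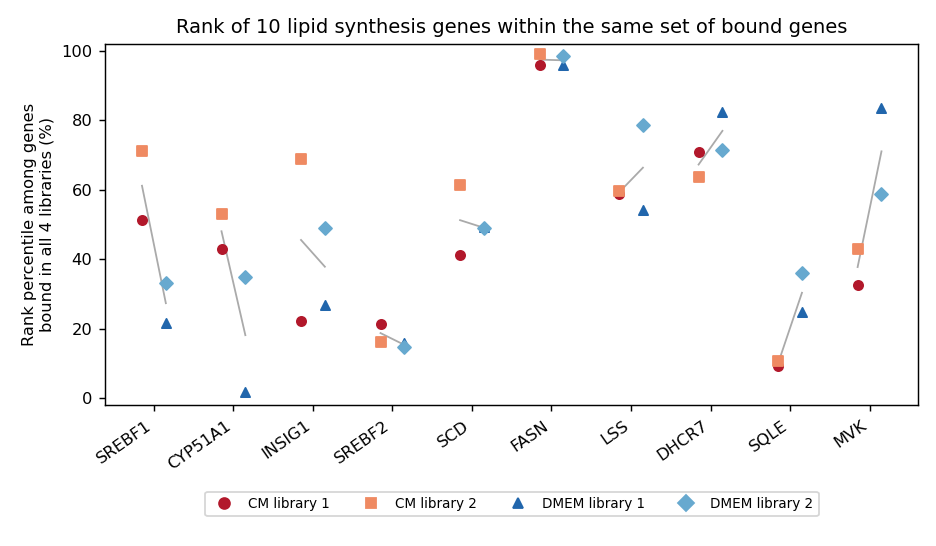
Rank percentile of the best peak among the 3180 genes bound in all 4 libraries (vertical axis) for 10 lipid synthesis genes, CM left and DMEM right of each tick, with a grey line between the means. SREBF1, CYP51A1 and SREBF2 lay higher in both CM libraries, and MVK, SQLE and DHCR7 lay higher in both DMEM libraries.

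Peaks at these genes were wider in CM. For all 10 genes bound in all 4 libraries, both CM peaks were wider than both DMEM peaks, as for 90% of the 3180 such genes, and in no member were both narrower, as for 0.0314%. For all 10 the best DMEM peaks were overlapped by some peak in both CM libraries, not always the best one, as for 97.8%. At LSS the best peaks of CM library 2 and DMEM library 1 did not overlap, so their widths compare different peaks. The ratio of mean widths, CM over DMEM, had a median of 2.58 in these 10 genes and of 2.25 in all 3180. It ran from 1.42 at FASN to 3.80 at SREBF1. At SREBF1 the peaks spanned 3520 and 1763 bp in CM and 621 and 770 bp in DMEM. The CM lists were also the longer ones, and the part of list length in these widths was not tested.

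Motif content was described in 36 member windows of 26 genes and in 22175 windows of all protein-coding genes, on both strands, each motif counted on its own so that matches may overlap. CACGTG lay in 5 member windows of 4 genes, SC5D having 2 overlapping windows with it, and in 8.34% of all windows. The motif was 58 bp before the SCAP start, 55 bp before the INSIG1 start, 40 bp after the LSS start and 131 bp before the SC5D start. CACATG lay in 2 member windows and 8.93% of all windows, and CACGCG in 11 and 14.2%. By gene, the 3 E-boxes lay in 4, 2 and 10 of 26 members and in 10.9%, 11.5% and 18.1% of genes with a window.

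CCAAT was found in 24 of 36 member windows and 34.7% of all windows, and the GC box GGGCGG in 33 of 36 and 56.3%. Some members have overlapping windows that share sites. By gene, CCAAT lay in 20 of 26 members and 42.1% of genes with a window, and the GC box in 25 and 64.3%. Member windows had a median GC content of 68.2%, against 62.3% for all windows. The part of this composition in the motif counts was not tested. CCAAT lay in the windows of all 6 members without any peak at a start and of 11 of the 16 genes with a start-site peak in both CM libraries. For the GC box these counts were 6 and 16, for CACGTG 1 and 3, for CACATG 1 and 0 and for CACGCG 2 and 7. Some genes have more windows than others, and these differences were not tested. TCACNCCAC, the only form of SREBP site searched for, lay in 1.13% of all windows. Among the 26 members with a window it lay in SREBF2 alone, 133 bp before its start. Start-site peaks were found at 20 and 16 of these 26 genes in the CM libraries, beside 47.1% and 44.4% of genes with a window, and at 11 and 16 in the DMEM libraries, beside 18.5% and 30.7%. Start-site peaks in both CM libraries were found at 16 of these 26 genes and at 42.5% of the 15842 genes with a window, and in both DMEM libraries at 11 and at 17.5%. Among genes with a CpG-rich window these shares were 58.4% and 24.4%.

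Among 36 other genes of lipid metabolism, listed for comparison, 31 were bound in both CM libraries, 12 in both DMEM libraries and 12 in CM alone. These calls were made for 39.1%, 15.9% and 11% of all genes, and for 55.8%, 23.2% and 15% of genes with a CpG-rich window. The 36 genes were listed with earlier results of these data known, so their counts cannot test lipid genes as a class. Among those bound in all 4 libraries were DHDDS, an enzyme of isoprenoid use, the elongase ELOVL1, the desaturases FADS1 and FADS2, the citrate carrier SLC25A1, the SREBP proteases MBTPS1 and MBTPS2, ERLIN1, the sterol-regulated TMEM97 and the LXR genes NR1H2 and NR1H3. The best peaks of FADS1 and FADS2 are the same peaks, and those of NR1H2 and NR1H3 lie at the far ends of these genes, at ends of POLD1 and MADD. MBTPS1, the first protease to cleave SREBPs, had start-site peaks at percentiles of 94.8 and 93.3 in CM and of 86.0 and 91.4 in DMEM. By set, 7 of 8 sterol and isoprenoid enzymes, 11 of 14 fatty acid and lipid enzymes, 7 of 7 genes of SREBP processing and stability and 6 of 7 genes of sterol storage, uptake, efflux and LXR were bound in both CM libraries. In both DMEM libraries these counts were 2, 4, 3 and 3. IDI2, ACACB and ABCG1 had no peak, and GPAM and LPIN1 had peaks inside the gene only.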

How the data were processed

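ChIP-seq peaks of 4 immunoprecipitated libraries, 2 with CM and 2 with DMEM, were analysed. The authors deposited 1 peak list per library with a score per peak, and common lists for CM and DMEM whose score is the mean of the joined peaks, which was checked to within 0.5 on all 9901 and 3380 intervals. The submitters' processing notes name MACS2 (version 2.1.1.20160309), Bowtie2 (version 2.3.4), Picard (version 2.9.0), Trim Galore (version 0.4.3), SAMtools (version 1.3.1) and the build GRCh38. Read counts and settings were not used here, so depth per library and the counting error of each call are unknown.

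Genes came from RefSeq GRCh38.p14, on chromosomes 1 to 22, X and Y, matched by symbol. The 26 members with promoter windows were matched by symbol too. Calls, percentiles and exact permutation tests were computed in Python 3.11.15 with pandas 2.3.3 and NumPy 2.4.6, and the call rule was tested on simulated peaks. A condition required both of its libraries. All 29 members are named, as are other genes with an end within 1000 bp of a member's best peak and comparison genes bound in all 4 or in no library, 1 of which is not reported here by name. PSMB3, TADA2A, GPAM and LPIN1 details were chosen after their values were seen. Members and lists were chosen with earlier results of these data known, so no list test was run. Alternatives were windows of 500 and 2500 bp, peak midpoints, starts, whole genes, a minimum score of 50, equal lists, overlapping peaks, common lists and leaving out each library.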

Additional observations from a re-analysis of the deposited data

How the results depend on the processing

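Of the counts of bound members, those that moved by more than 1.5 times did so under the following settings. In lists of equal length, 11 members were bound in both CM libraries, where 18.0% of all genes were, of them 2 early and 3 late sterol genes. The difference between CM and DMEM in members bound per library there reversed to -0.5 genes (exact permutation p = 1.0). With a minimum score of 50, 5 members were bound in both DMEM libraries and 5 in all 4, 2 were CM-only, and 2 late sterol and 0 regulator genes were bound in both DMEM libraries. With a window of 2500 bp, and with any peak over the gene or its flanks, 2 members were CM-only and 4 fatty acid genes were bound in both CM libraries. With peaks over the gene, at the RefSeq start, or at an end or start, 2 early sterol genes were bound in both DMEM libraries. By the authors' common lists 6 members were bound in CM and not in DMEM. The cause of these changes was not tested, apart from the fewer peaks that shorter or filtered lists hold by construction. Shares of all genes under the minimum score, the wider window and the common lists are not reported here.

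Leaving out each library in turn gave 17 to 21 members bound in CM, 10 to 17 in DMEM, 10 to 16 in all remaining libraries and 1 to 7 CM-only. By group these ranges were 1 to 3 early sterol, 4 to 7 late sterol and 3 to 5 regulator genes in DMEM and 2 to 4 fatty acid and 6 to 8 late sterol genes in CM. The difference in members bound per library ran from 2 to 9 genes. With the replicate numbers of the labels as a block, the difference of 5.5 genes had an exact permutation p of 1.0 over 4 relabellings. So few relabellings cannot call a difference of any size. The numbers may not pair the libraries, since deviations of same-numbered libraries correlated at 0.05 over 3180 genes.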

Other observations

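Beyond the ends of the lipid genes, LPIN1, which encodes a phosphatidate phosphatase and coactivator, carried peaks inside the gene in every library. CM library 1 had 9 such peaks and CM library 2 had 5, against 1 and 3 in the DMEM libraries. The highest-scoring of them lay on chromosome 2 from 11778557 to 11779778 in CM library 1, at percentile 84.4, and the peaks there stood at 93.2 in CM library 2 and at 68.4 and 73.8 in the DMEM libraries. This site was 31925 bp from the nearest listed LPIN1 start in CM library 1. GPAM, the first enzyme of glycerolipid synthesis, had a single peak over its RefSeq start in each library, at percentiles of 72.8 and 64.9 in CM and of 35.4 and 63.1 in DMEM. That start lies too far inside the annotated gene for the call by gene ends, as at PMVK and ACLY.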
